A study of Homo sapiens with 24 samples.

Results

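The nuclear-encoded subunits of the respiratory chain were followed through 4 treatment conditions in 2 human leukaemia cell lines. Of the 60655 genes in the count table, 53 were taken by symbol as listed subunits of complexes I to V. The list was chosen with earlier results of these data known. They comprise 28 subunits of complex I (NADH dehydrogenase), 4 of complex II (succinate dehydrogenase), 7 of complex III (cytochrome bc1), 9 of complex IV (cytochrome c oxidase) and 5 of complex V (the catalytic head of ATP synthase). Each symbol matched 1 Ensembl ID, and all 53 passed the low-count filter in every fit. The study collected poly(A) RNA from NB4 and HL-60 cells in 24 libraries, 3 in each of 8 groups. NB4 is an established acute promyelocytic leukaemia line that carries the PML-RARA fusion, and HL-60 is an established promyeloblast line without that fusion. The labels give the genotype of both lines as WT. In each line the groups were all-trans retinoic acid (ATRA, 1 µM, 48 h), arsenic trioxide (ATO, 0.8 µM, 48 h), both agents together for 48 h (ATRA+ATO, without doses of its own in the labels), and untreated cells, for which no culture time or vehicle is given. The 3 libraries of a group carry batch numbers 1 to 3 in the labels, which do not say whether each number was a culture of its own, so a p-value here is set by the spread among these libraries, and that spread may be technical. Each line is 1 cell line, so a difference between NB4 and HL-60 is a difference between these 2 lines.

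Complexes I and II pass electrons from NADH and succinate to ubiquinone, complex III passes them on to cytochrome c, and complex IV gives them to oxygen. Complexes I, III and IV pump protons across the inner mitochondrial membrane, and complex V uses the return of those protons to make ATP. Some core subunits of complexes I, III and IV and part of the membrane sector of complex V are encoded by the mitochondrial genome, so their assembly joins products of 2 genomes, whereas complex II is wholly nuclear-encoded. Neutrophils, the cells that these lines can be driven towards by ATRA, are known for few mitochondria and a strong use of glycolysis.

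Promoters of 6 members are shown: COX5B, COX8A and COX7C of complex IV, NDUFS3 of complex I and UQCRFS1 of complex III because their levels are described further on, and NDUFA8 of complex I because its window holds overlapping NRF1 matches. The RefSeq table (GRCh38.p14) held a window of 300 bases, 250 before to 50 after the gene start, for 44 of the 53 members. The windows were searched on both strands for the core motif of nuclear respiratory factor 1 (NRF1), which is GCGCA, any base and GCGC, for the ETS core bound by GABPA, CCGGAAG, and for the YY1 core, AANATGGCG. These factors are known to act at many genes for mitochondrial proteins. The windows shown are COX5B at chr2:97645812-97646111 (plus strand), COX8A at chr11:63974370-63974669 (plus strand), COX7C at chr5:86617691-86617990 (plus strand), NDUFS3 at chr11:47578824-47579123 (plus strand), UQCRFS1 at chr19:29213102-29213401 (minus strand) and NDUFA8 at chr9:122159730-122160029 (minus strand). Each is written 5′ to 3′ on the strand of its gene, and capitals mark the motif matches.
COX5B: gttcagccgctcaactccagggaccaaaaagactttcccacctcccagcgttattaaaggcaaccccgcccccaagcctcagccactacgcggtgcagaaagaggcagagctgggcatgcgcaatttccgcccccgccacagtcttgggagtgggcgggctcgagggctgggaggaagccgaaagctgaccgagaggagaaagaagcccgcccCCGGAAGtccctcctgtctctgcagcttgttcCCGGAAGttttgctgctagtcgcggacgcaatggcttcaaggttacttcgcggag
COX8A: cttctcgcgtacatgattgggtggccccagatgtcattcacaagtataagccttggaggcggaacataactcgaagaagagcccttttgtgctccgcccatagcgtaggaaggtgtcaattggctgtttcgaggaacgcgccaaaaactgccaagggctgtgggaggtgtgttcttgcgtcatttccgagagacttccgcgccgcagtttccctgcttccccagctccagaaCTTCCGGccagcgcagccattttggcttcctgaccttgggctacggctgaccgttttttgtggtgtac
COX7C: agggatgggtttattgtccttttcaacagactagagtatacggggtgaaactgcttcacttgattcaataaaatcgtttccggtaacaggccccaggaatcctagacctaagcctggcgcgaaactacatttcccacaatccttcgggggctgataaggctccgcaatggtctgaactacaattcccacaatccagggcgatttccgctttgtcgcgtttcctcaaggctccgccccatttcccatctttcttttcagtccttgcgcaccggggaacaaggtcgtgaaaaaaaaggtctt
NDUFS3: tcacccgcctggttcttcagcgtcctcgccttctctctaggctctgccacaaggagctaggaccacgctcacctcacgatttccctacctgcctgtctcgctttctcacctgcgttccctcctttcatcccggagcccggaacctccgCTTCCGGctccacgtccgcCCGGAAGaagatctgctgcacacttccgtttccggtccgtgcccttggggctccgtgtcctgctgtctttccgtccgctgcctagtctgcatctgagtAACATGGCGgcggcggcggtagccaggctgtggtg
UQCRFS1: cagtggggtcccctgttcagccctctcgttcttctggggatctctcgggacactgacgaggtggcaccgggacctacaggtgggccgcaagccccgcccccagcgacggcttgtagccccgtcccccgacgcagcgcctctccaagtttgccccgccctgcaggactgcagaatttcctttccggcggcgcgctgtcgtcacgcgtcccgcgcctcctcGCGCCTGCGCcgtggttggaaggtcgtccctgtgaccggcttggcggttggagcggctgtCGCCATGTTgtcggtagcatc
NDUFA8: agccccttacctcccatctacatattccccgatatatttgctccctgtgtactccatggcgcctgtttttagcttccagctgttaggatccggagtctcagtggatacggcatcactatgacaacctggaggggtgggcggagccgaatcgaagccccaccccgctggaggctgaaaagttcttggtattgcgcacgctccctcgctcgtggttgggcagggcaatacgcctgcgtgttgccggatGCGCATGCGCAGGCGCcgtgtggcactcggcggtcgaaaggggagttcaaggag
COX5B holds 2 ETS matches, COX8A holds 1, and COX7C holds a match to none of the 3 motifs. NDUFS3 holds 2 ETS matches and 1 YY1 match, UQCRFS1 holds 1 NRF1 and 1 YY1 match, and NDUFA8 holds 2 NRF1 matches that overlap.

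Over the 44 windows, the NRF1 core was found in 11 (25.0%), against 8.61% of the 15301 windows of protein-coding genes and 6.28% of all 27305 windows. The ETS core was found in 13 members (29.5%), against 14.4% of protein-coding and 10.7% of all windows. The YY1 core was found in 13 members (29.5%), against 4.92% of protein-coding and 3.37% of all windows. At least 1 of the 3 cores was present in 29 members (65.9%), against 24.5% of protein-coding and 17.9% of all windows. Among the 8 complex IV promoters available, 5 held the ETS core, 1 the YY1 core and 0 the NRF1 core. Among the 25 of complex I, 6 held the NRF1 core, 4 the ETS core and 9 the YY1 core. These are matches of letters in a window and not measurements of binding.

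Library totals ran from 37811652 to 57795273 counts, and levels are given below in CPM, the count of a gene scaled to the library total after TMM scaling over all 24 libraries. Per kilobase of exon, the medians in untreated cells of NB4 and HL-60 were 20.8 and 20.9 CPM for complex I, 20.0 and 26.7 for complex II, 44.5 and 48.3 for complex III, 60.7 and 74.1 for complex IV, and 43.4 and 59.5 for complex V. The highest per-length level was that of ATP5F1B, the catalytic beta subunit of ATP synthase, at 524 CPM per kilobase in untreated NB4 and 519 in untreated HL-60 cells. The lowest was that of NDUFA13, a complex I accessory subunit also known as GRIM-19, at 0.257 in NB4 and 0.453 in HL-60. NDUFA13 shares 21.0% of its exon bases with AC011448.1, and the part of that overlap in its low value was not tested. Relative to counting error, replicate 2 of HL-60 ATRA+ATO stood apart from the other libraries of its group. In NB4 ATRA, replicates 2 and 3 differed most (chi-square per degree of freedom 39.3). Replicate 1 lay between those, at 20.5 from replicate 2 and 15.5 from replicate 3. Results that changed without replicate 2 of either group are named below. The summed level of 10 myeloid progenitor markers ran from 2591 to 3314 CPM in NB4 ATRA+ATO cells, against 9855 to 10486 in untreated NB4 cells, and from 1242 to 1442 in HL-60 ATRA+ATO cells, against 5661 to 6403 in untreated HL-60 cells. The sum of 5 differentiated myeloid markers ran from 5662 to 6397 CPM in NB4 ATRA+ATO cells, against 292 to 319 in untreated NB4 cells, and from 2191 to 2277 in HL-60 ATRA+ATO cells, against 311 to 315 in untreated HL-60 cells. All 5 erythroid markers were at 0 in every group, and B cell, T cell, epithelial and fibroblast marker sums did not pass 46.2 CPM in any library. The part of these marker shifts in the member results was not tested, and in bulk RNA fewer cells of a type and less RNA per cell cannot be told apart. Several members share exon bases with other genes while the strand setting of the counting is not given, the largest shares being 49.1% in NDUFS7, 48.5% in NDUFB8, 35.9% in NDUFB2, which overlaps BRAF, 34.5% in COX8A and 28.4% in NDUFV2. Named pseudogenes held counts equal to 85.2% of those of SDHA and 72.0% of those of NDUFV2, so these values are uncertain.

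Calls below are adjusted p-values under 0.05 from edgeR's quasi-likelihood test with Benjamini-Hochberg adjustment over all genes tested, and changes are given on the log2 scale with standard errors. The 3 comparisons of treated with untreated cells in a line share the untreated libraries. The shares of all genes given with each comparison also stand beside the counts by complex further on. In NB4, ATRA+ATO called 16 members higher and 24 lower, which is 75.5% of the 53, against 35.4% of all genes tested higher and 32.8% lower, 68.2% in all. ATRA alone called 19 higher and 14 lower in NB4, against 31.3% of all genes tested higher and 28.6% lower, 59.9% in all. ATO alone called 17 higher and 2 lower in NB4, against 21.2% of all genes tested higher and 19.6% lower, 40.8% in all. In shares of the 53, 30.2% were higher and 45.3% lower after ATRA+ATO, 35.8% higher and 26.4% lower after ATRA, which is near the shares of all genes, and 32.1% higher and 3.77% lower after ATO. The median log2 change of the members was -0.13 after ATRA+ATO, 0.05 after ATRA and 0.11 after ATO, beside 0.05, 0.03 and 0.02 over all genes. Scaled by library size alone, 46.7% of the members called after ATRA were higher (14 of 30), against 57.6% with TMM. That scaling moved the median of all genes by 0.107 on the log2 scale for ATO. For ATRA+ATO it moved that median by 0.079, and 20 of the 40 members called were then higher, against 16 of 40 with TMM. The excess of lower over higher members after ATRA+ATO in NB4 therefore depended on the scaling. Left out singly, untreated libraries 1 and 2 and ATO libraries 1 and 3 lowered the count of members higher after ATO from 17 to 11, 9, 8 and 10.

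In HL-60, ATRA+ATO called 23 members higher and 5 lower, against 30.7% of all genes tested higher and 29.7% lower, 60.4% in all. ATRA called 26 higher and 4 lower, against 25.2% of all genes tested higher and 23.3% lower, 48.6% in all. ATO called 7 higher and 0 lower, against 16.5% of all genes tested higher and 12.1% lower, 28.7% in all. At an unadjusted p under 0.05, 2 members were lower after ATO in HL-60 by edgeR's quasi-likelihood test, and at the adjusted threshold DESeq2 called 1 and limma-voom 0. Member medians were 0.08 after ATRA+ATO, 0.17 after ATRA and 0.06 after ATO, beside -0.00, 0.01 and 0.02 over all genes. By library size alone, 60.0% of members called after ATRA+ATO in HL-60 were higher (18 of 30), against 82.1% with TMM. The ATRA count fell to 16 higher without untreated library 3, the count lower after ATRA+ATO became 3 without untreated library 2 and 13 without ATRA+ATO library 2, and the count higher after ATO became 12 without untreated library 2 and 3 without untreated library 3 or ATO library 2.

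**Figure D1:**
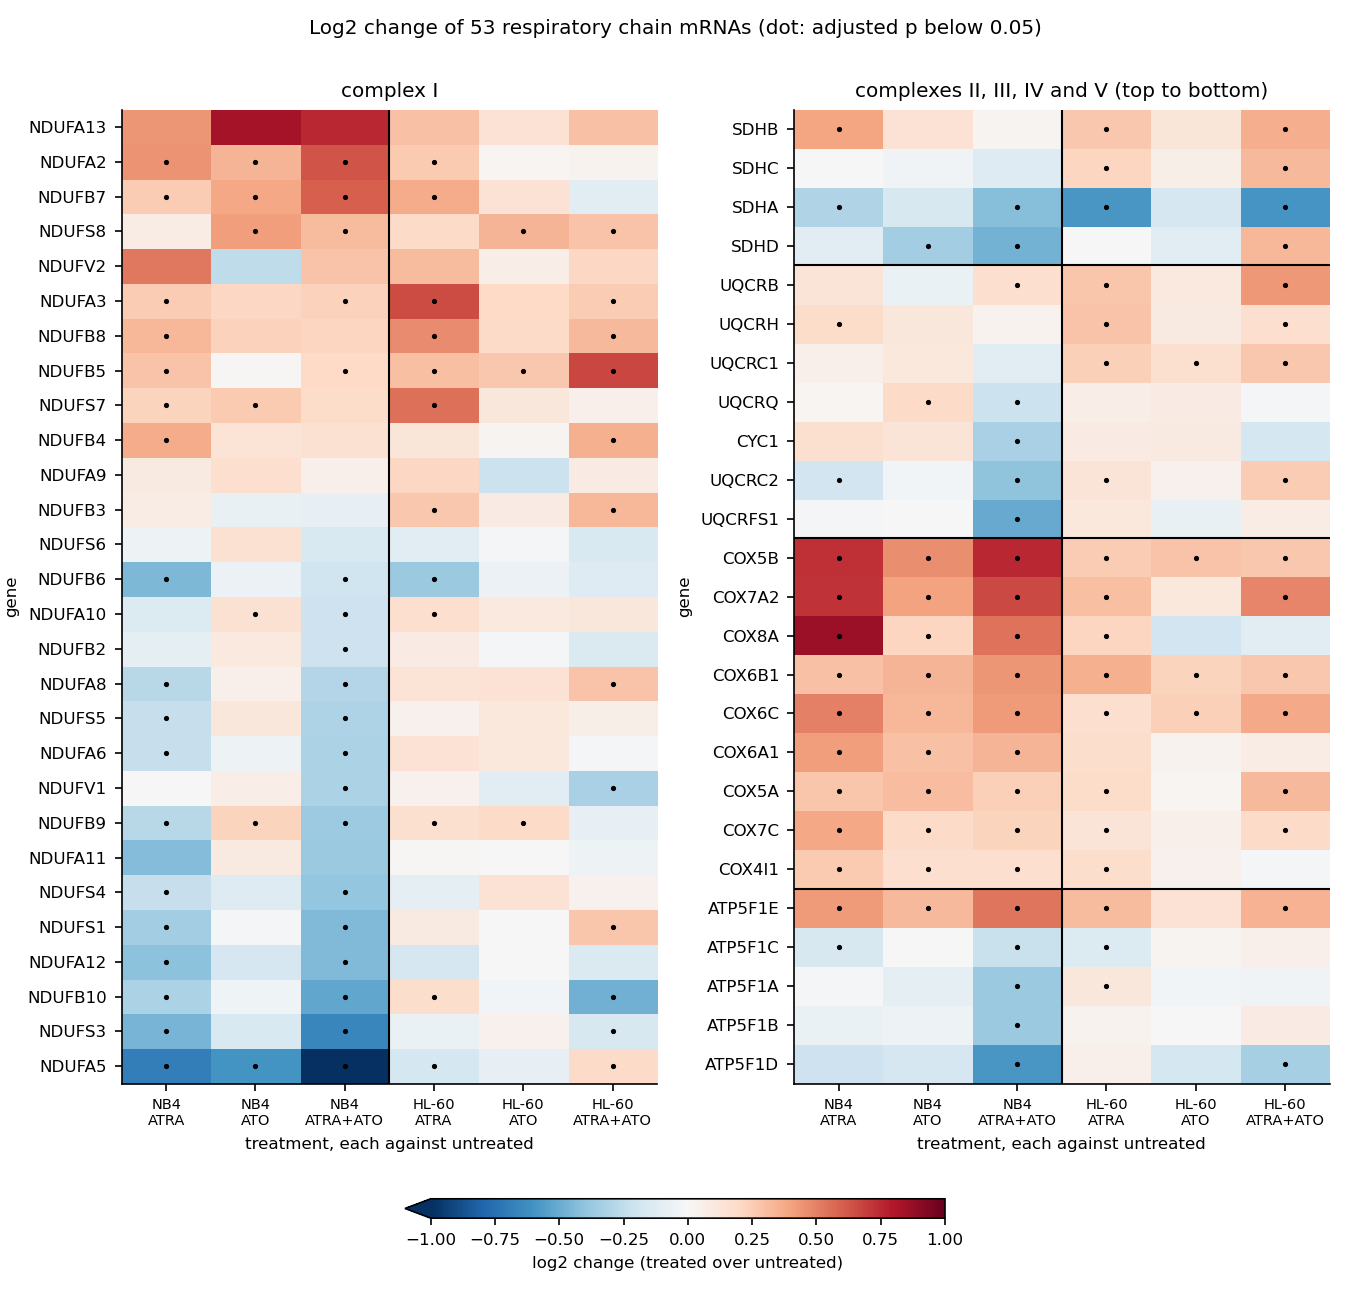
Log2 change against untreated cells of each of the 53 members (rows, grouped by complex) after each treatment in NB4 and HL-60 (columns), with a dot where the adjusted p was below 0.05. The 9 complex IV members are higher in all 3 NB4 columns, while 14 complex I members are called lower after ATRA+ATO in NB4 and 3 in HL-60.

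Complex IV moved in 1 direction in NB4. All 9 of its listed subunits rose after ATRA, after ATO and after ATRA+ATO, and each of the 9 had the same sign in all 3 batches for each treatment. The median log2 change was 0.42 after ATRA+ATO, 0.42 after ATRA and 0.31 after ATO. These subunits surround the catalytic core made by mitochondria and are known to stabilise the enzyme and tune its activity. COX5B, the zinc-binding subunit, was at 89.1, 103 and 94.9 CPM after ATRA+ATO, 96.1, 85.0 and 99.8 after ATRA and 78.9, 76.2 and 79.3 after ATO, against 53.1, 57.9 and 58.3 in untreated NB4 cells. No treated library overlapped the untreated ones. The COX5B log2 change was 0.76 ± 0.08 after ATRA+ATO (adjusted p = 8.05e-09), 0.73 ± 0.08 after ATRA (adjusted p = 2.28e-08) and 0.47 ± 0.08 after ATO (adjusted p = 3.59e-05). COX7A2, the subunit VIIa form of most tissues, was at 141, 159 and 145 CPM after ATRA+ATO, 165, 140.2 and 157 after ATRA and 123, 121 and 127 after ATO, against 89.5, 97.3 and 93.4 in untreated NB4 cells. All 9 treated libraries lay above the 3 untreated ones. Its log2 changes were 0.66 ± 0.07, 0.72 ± 0.07 and 0.40 ± 0.07 in the same order of treatments (adjusted p = 2.17e-08, 8.6e-09 and 8.01e-05).

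COX8A, the smallest subunit of the enzyme, changed most after ATRA in NB4. It stood at 59.1, 63.1 and 52.7 CPM after ATRA+ATO, 76.9, 63.4 and 75.3 after ATRA and 46.3, 44.0 and 48.7 after ATO, against 37.4, 39.7 and 42.2 in untreated NB4 cells. The ATRA and the ATRA+ATO libraries lay well above the untreated ones, and the ATO libraries lay between those and the untreated libraries. Its log2 change was 0.55 ± 0.09 after ATRA+ATO (adjusted p = 7.38e-06), 0.85 ± 0.09 after ATRA (adjusted p = 1.62e-08) and 0.22 ± 0.09 after ATO (adjusted p = 0.0494). COX6C, which spans the membrane beside the core, rose by 0.42, 0.51 and 0.33 after ATRA+ATO, ATRA and ATO. COX6B1, which helps hold the dimer together, rose by 0.44, 0.29 and 0.34. COX6A1, also at the dimer interface, rose by 0.34, 0.42 and 0.29, and COX5A, which faces the matrix, by 0.24, 0.28 and 0.31. The smallest changes after ATRA+ATO were those of COX7C, at 0.22, and of COX4I1, the largest nuclear subunit, at 0.17.

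The ATRA and ATRA+ATO counts for complex IV in NB4 stayed at 7 to 9 of 9 under the alternatives run, and the ATO count at 5 to 9. Without untreated library 1 or 2, or ATO library 1 or 3, 5 of the 9 were called after ATO, and the calls of COX8A, COX7C, COX4I1 and COX6A1 were the ones lost, and all of these but COX6A1 were also lost without ATO library 2. After ATRA+ATO, COX4I1 lost its call without untreated library 1 or 2 or ATRA+ATO library 2, and COX7C without ATRA+ATO library 2. COX6B1 lost its ATRA call without ATRA library 1 or 3. With the batch number as a replicate block, COX4I1 and COX8A were no longer called after ATO (adjusted p = 0.0581 and 0.0661 by edgeR's quasi-likelihood test).

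**Figure D2:**
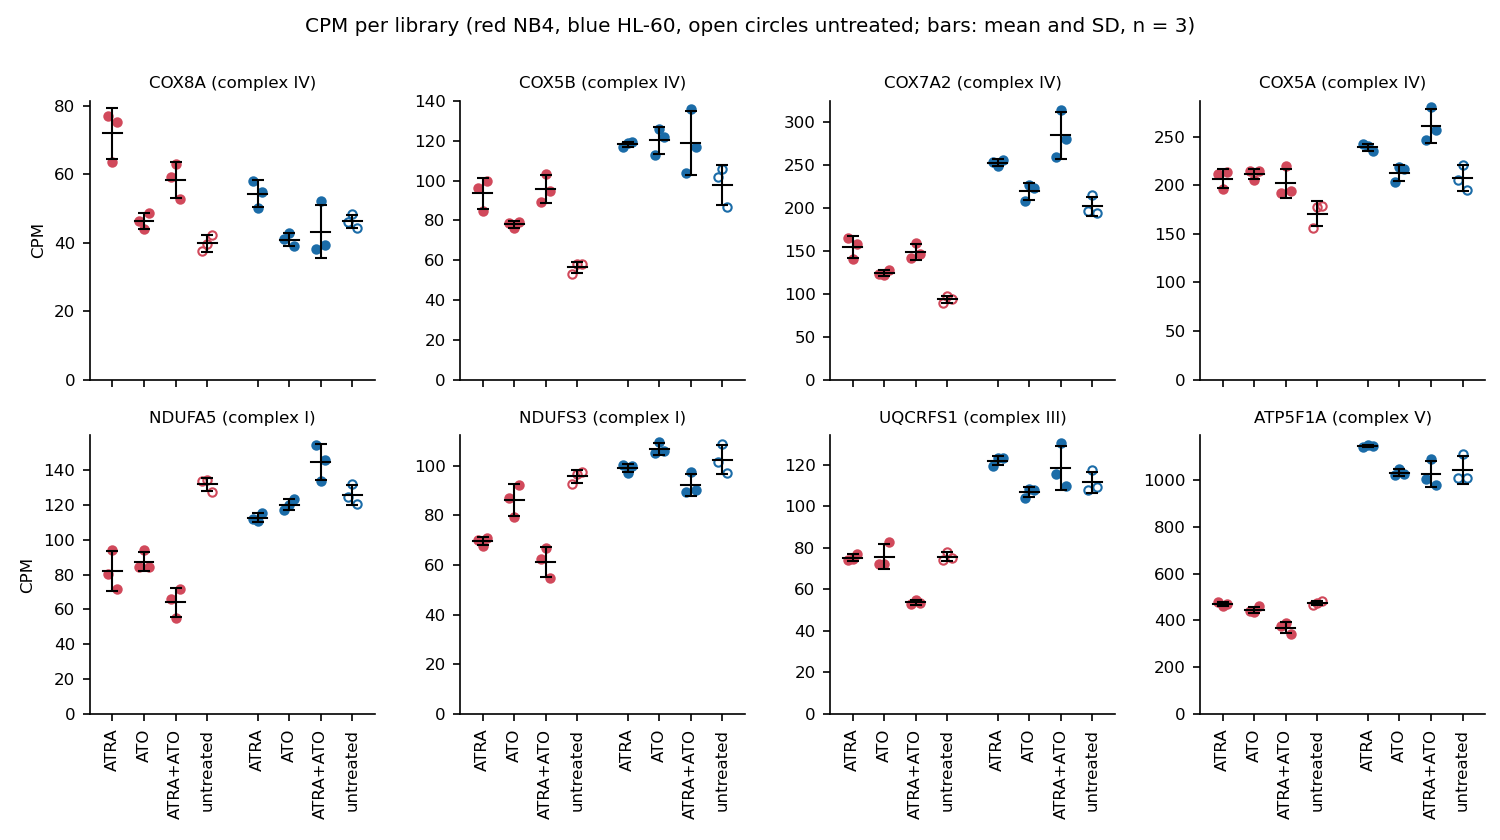
Levels in CPM (vertical axes) of 8 members in every library of the 4 conditions of NB4 and HL-60, each point 1 library. COX5B and COX7A2 are higher in every treated NB4 library than in the untreated ones, whereas NDUFA5, NDUFS3, UQCRFS1 and ATP5F1A are lower after ATRA+ATO in NB4.

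Complex I members were called in both directions in NB4. After ATRA+ATO 14 of the 28 listed subunits fell and 5 rose, after ATRA 11 fell and 7 rose, and after ATO 1 fell and 6 rose. Median log2 changes were -0.20, -0.07 and 0.09. In shares, 50% fell and 17.9% rose after ATRA+ATO, beside 32.8% and 35.4% of all genes tested. After ATRA the shares were 39.3% and 25%, beside 28.6% and 31.3%. After ATO they were 3.57% and 21.4%, beside 19.6% and 21.2%, so the share higher was near that of all genes. Of the 13 subunits assigned to the matrix arm, which takes electrons from NADH to ubiquinone, 7 fell and 2 rose after ATRA+ATO. Of the 15 assigned to the membrane arm, which pumps protons, 7 fell and 3 rose. NDUFA5, an accessory subunit of the matrix arm, was at 65.8, 55.2 and 71.4 CPM after ATRA+ATO, 80.4, 93.9 and 71.6 after ATRA and 84.1, 94.0 and 84.3 after ATO, against 134, 134 and 128 in untreated NB4 cells. The 9 treated libraries all lay below the untreated ones. The NDUFA5 log2 change was -1.05 ± 0.09 after ATRA+ATO (adjusted p = 7.36e-10), -0.69 ± 0.09 after ATRA (adjusted p = 7.02e-07) and -0.59 ± 0.09 after ATO (adjusted p = 1.49e-05). NDUFA5 was the 1 complex I member called lower after ATO.

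NDUFS3, a core subunit close to the ubiquinone site, was at 62.4, 66.7 and 54.6 CPM after ATRA+ATO, 70.1, 67.6 and 70.8 after ATRA and 87.1, 79.5 and 92.0 after ATO, against 92.8, 96.6 and 97.6 in untreated NB4 cells. The treated libraries were all lower than the untreated ones, those of ATO by the least. It fell by 0.65 after ATRA+ATO (adjusted p = 8.02e-08) and by 0.46 after ATRA (adjusted p = 1.36e-05) on the log2 scale, while its ATO value of -0.15 was not called. NDUFS3 shares 22.4% of its exon bases with PTPMT1. NDUFS1, the largest subunit of the complex and a carrier of iron-sulphur clusters, fell by 0.44 after ATRA+ATO and by 0.34 after ATRA, with an uncalled value of -0.01 after ATO. NDUFB10, an accessory subunit of the membrane arm, fell by 0.52 after ATRA+ATO and by 0.32 after ATRA. NDUFV1, the NADH-binding subunit, fell by 0.32 after ATRA+ATO and had values of -0.00 after ATRA and 0.06 after ATO, neither called.

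The complex I subunits that rose in NB4 after ATRA+ATO were NDUFA2, NDUFB7, NDUFS8, NDUFA3 and NDUFB5. NDUFA2, an accessory subunit beside the NADH-oxidising module, was at 42.6, 54.1 and 47.0 CPM after ATRA+ATO, against 29.6, 32.7 and 30.0 in untreated NB4 cells, and rose by 0.63 ± 0.10 on the log2 scale (adjusted p = 8.07e-06). NDUFB7, on the membrane arm, was at 46.2, 54.7 and 40.0 CPM after ATRA+ATO, against 30.8, 30.3 and 31.8 in untreated NB4 cells, and rose by 0.60 ± 0.11 (adjusted p = 4.15e-05). In both genes the 3 treated libraries lay above the 3 untreated ones. NDUFS8, a core iron-sulphur subunit, rose by 0.31 after ATRA+ATO and by 0.42 after ATO, and was at 0.08 after ATRA without a call. Under the alternatives, the count lower after ATRA+ATO ran from 11 to 15 and the count higher from 3 to 9, with 8 higher without untreated library 3. Of the 5 that rose, NDUFA3 lost its call without untreated library 1 or 2 or ATRA+ATO library 2, and NDUFB5 without ATRA+ATO library 3. The count higher after ATRA fell from 7 to 3 without untreated library 1 or 2 or ATRA library 3, and to 4 without ATRA library 1, and the count higher after ATO fell from 6 to 3 without untreated library 2 and to 2 without ATO library 1, while library sizes alone gave 13. Without ATO library 2, 2 were called lower after ATO. With the replicate block, NDUFA3 and NDUFB2 lost their calls after ATRA+ATO (adjusted p = 0.0527 and 0.0561), NDUFA6 and NDUFB7 theirs after ATRA (0.0501 and 0.0612), NDUFA10 its call after ATO (0.0698), and NDUFA11 was called lower after ATRA (0.0469), all by edgeR's quasi-likelihood test.

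In complex II the 4 subunits of NB4 did not move together. The values of SDHA are uncertain, as named pseudogenes held counts equal to 85.2% of those of SDHA. SDHA, the flavoprotein that oxidises succinate, fell by 0.42 after ATRA+ATO (adjusted p = 0.00475) and by 0.30 after ATRA (adjusted p = 0.0437), and the ATRA call was lost without any 1 of the untreated libraries or ATRA library 2. SDHB, the iron-sulphur subunit, was at 123, 134 and 122 CPM after ATRA+ATO, 164, 159 and 164 after ATRA and 133, 133 and 143 after ATO, against 124, 120.3 and 125 in untreated NB4 cells. The ATRA libraries were the highest of these, with a rise of 0.40 ± 0.06 (adjusted p = 6.86e-06), while the ATRA+ATO value of 0.03 was not called. SDHD, a membrane anchor, was at 66.3, 65.4 and 69.5 CPM after ATRA+ATO and 71.6, 68.7 and 78.1 after ATO, against 88.9, 102 and 86.3 in untreated NB4 cells, without overlap. It fell by 0.47 after ATRA+ATO (adjusted p = 1.87e-05) and by 0.35 after ATO (adjusted p = 0.00127). SDHC, the other anchor, had log2 values of -0.13, 0.01 and -0.03 after ATRA+ATO, ATRA and ATO, none called.

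In complex III, 4 of 7 subunits fell and 1 rose after ATRA+ATO in NB4, 1 fell and 1 rose after ATRA, and 1 rose after ATO. UQCRFS1, the Rieske iron-sulphur protein, was at 52.8, 55.0 and 53.4 CPM after ATRA+ATO, 74.0, 74.8 and 77.0 after ATRA and 72.5, 72.1 and 83.0 after ATO, against 74.3, 78.2 and 75.0 in untreated NB4 cells. The ATRA+ATO libraries lay below all the others, and the libraries of either drug alone overlapped the untreated ones. Its log2 change was -0.50 ± 0.07 after ATRA+ATO (adjusted p = 7.17e-07), beside -0.01 after ATRA and -0.00 after ATO. UQCRC2, a core protein of the complex, fell by 0.40 after ATRA+ATO and by 0.19 after ATRA. CYC1, cytochrome c1, was at 80.1, 91.7 and 76.3 CPM after ATRA+ATO, against 98.0, 99.5 and 111 in untreated NB4 cells, and fell by 0.32 (adjusted p = 0.00121). UQCRQ fell by 0.22 after ATRA+ATO and rose by 0.19 after ATO, and UQCRB rose by 0.16 after ATRA+ATO. The UQCRQ call after ATO was lost in 5 of the 6 fits that left out 1 library of these groups and with the replicate block (adjusted p = 0.066 by edgeR's quasi-likelihood test). After ATRA+ATO UQCRQ lost its call without untreated library 3 or ATRA+ATO library 1, and UQCRB, which lines a ubiquinone site, without untreated library 1 or 3 or ATRA+ATO library 3. UQCRH, the hinge protein, rose by 0.18 after ATRA, and lost that call without untreated library 1, while 2 members were called higher without untreated library 3 or ATRA library 2.

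In complex V, 4 of the 5 subunits of the catalytic head fell after ATRA+ATO in NB4 and 1 rose, and the count lower was 4 under every alternative run. ATP5F1A, the alpha subunit, was at 376, 387 and 343 CPM after ATRA+ATO, 479.6, 463 and 470.2 after ATRA and 441, 434 and 460.01 after ATO, against 466, 475 and 481 in untreated NB4 cells. ATP5F1B, the beta subunit, was at 940.04, 1014 and 873 CPM after ATRA+ATO, 1199.6, 1085 and 1204 after ATRA and 1192, 1114 and 1228 after ATO, against 1185, 1231 and 1235 in untreated NB4 cells. In both genes the ATRA+ATO libraries were the lowest. The log2 change after ATRA+ATO was -0.37 ± 0.06 for ATP5F1A (adjusted p = 4.66e-06) and -0.37 ± 0.06 for ATP5F1B (adjusted p = 1.6e-05). ATP5F1C, the gamma subunit of the rotating shaft, fell by 0.22 after ATRA+ATO and by 0.16 after ATRA, and ATP5F1D, the delta subunit, fell by 0.58 after ATRA+ATO. ATP5F1E, the epsilon subunit, was at 134, 154 and 141 CPM after ATRA+ATO, 135, 129.6 and 132 after ATRA and 122, 124 and 123 after ATO, against 87.8, 102 and 105 in untreated NB4 cells. All its treated libraries lay above the untreated ones. It rose by 0.54 ± 0.07, 0.43 ± 0.07 and 0.32 ± 0.07 on the log2 scale (adjusted p = 5.71e-07, 1.72e-05 and 0.000868), and shares 23.2% of its exon bases with TUBB1.

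The combination in NB4 was then compared with each drug. Against ATO, ATRA+ATO called 24 members lower and 7 higher, beside 28.6% of all genes tested higher and 28.3% lower, 56.9% in all. The lower ones were 15 of complex I, 5 of III and 4 of V, and the 7 higher ones included COX5B, COX7A2 and COX8A of complex IV. Against ATRA, 14 were lower and 3 higher, beside 16.8% of all genes tested higher and 21.2% lower, 38% in all. The lower ones were 4 of complex I, 2 of II, 4 of III, 1 of IV and 3 of V. With library sizes alone, which moved the median of all genes in the comparison with ATRA by 0.144, 6 were lower and 6 higher, so the split between directions in that comparison depended on the scaling. The count lower against ATRA was 9 without ATRA library 1 or ATRA+ATO library 3, and the count higher was 1 without replicate 2 of either group. CYC1 and UQCRFS1 had the largest falls against ATRA, with log2 changes of -0.48 ± 0.08 (adjusted p = 5.77e-05) and -0.49 ± 0.07 (adjusted p = 5.38e-06). COX8A was the complex IV member lower in ATRA+ATO than in ATRA, at -0.31, and that call was lost without ATRA library 1 or ATRA+ATO library 3. The call of NDUFB10 against ATRA was lost with the replicate block (adjusted p = 0.0568 by edgeR's quasi-likelihood test).

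The interaction is the combination's log2 change minus the sum of the changes after each drug alone. Without regard to calls, it was below 0 for 47 members and above 0 for 6 in NB4. The member median was -0.21, beside -0.06 over all genes. It was called below 0 for 15 members and above 0 for 1, against 6.14% of all genes tested higher and 12.5% lower, 18.7% in all. Among the 15 were 4 of the 7 subunits of complex III and 6 of the 9 of complex IV. Without untreated library 1 the count called below 0 was 9, and without ATRA library 2 it was 24. CYC1 had a value of -0.61 ± 0.11 (adjusted p = 0.000472), SDHB of -0.51 ± 0.09 (adjusted p = 0.000162), COX8A of -0.52 ± 0.12 (adjusted p = 0.00367) and UQCRFS1 of -0.49 ± 0.09 (adjusted p = 0.000704). For COX8A, COX7A2 and COX5B the combination stayed above untreated cells but below the sum of both single-drug changes. The 1 member called above 0 was NDUFB6, at 0.31, a call lost under the replicate block (adjusted p = 0.0742 by edgeR's quasi-likelihood test), as was that of ATP5F1B (0.0676). The NDUFB6 call was also lost without untreated library 2 or 3, ATRA library 1 or 3, any 1 of the ATO libraries, or ATRA+ATO library 2 or 3. Without ATRA library 2, 2 members were called above 0. In HL-60 the interaction was below 0 for 34 members and above 0 for 19 without regard to calls. It was called below 0 for 9 members and above 0 for 3, against 14.4% of all genes tested higher and 18.1% lower, 32.5% in all. The HL-60 count called below 0 was 14 without untreated library 2, 5 without untreated library 3, ATO library 2 or ATRA+ATO library 1 or 3, and 21 without ATRA+ATO library 2.

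HL-60 members rose more often than they fell after ATRA and after ATRA+ATO. In complex IV, 6 of 9 rose after ATRA+ATO, 8 after ATRA and 3 after ATO, and 0 were called lower. The count lower was also 0 with DESeq2 and limma-voom for all 3 treatments, and at an unadjusted p under 0.05 it was 0 after ATRA+ATO and ATRA and 1 after ATO. COX7A2 was at 259, 313 and 279.7 CPM after ATRA+ATO, 253, 248 and 256 after ATRA and 207, 226 and 222 after ATO, against 196, 214 and 193 in untreated HL-60 cells. The ATO libraries overlapped the untreated ones, and the others did not. It rose by 0.49 ± 0.06 after ATRA+ATO (adjusted p = 1.02e-07) and by 0.30 ± 0.06 after ATRA (adjusted p = 9.12e-05). COX5B was at 104, 136 and 117 CPM after ATRA+ATO, 117, 119 and 119 after ATRA and 113, 126 and 122 after ATO, against 102, 106 and 86.5 in untreated HL-60 cells, with replicate 1 of ATRA+ATO within the untreated range. It rose by 0.27, 0.25 and 0.28, but lost the ATRA call without untreated library 3 and the ATO call without that library or ATO library 2. COX8A rose by 0.21 after ATRA and had uncalled values of -0.11 after ATRA+ATO and -0.19 after ATO, and its ATRA call was lost in 5 of the 6 fits that left out 1 library. The complex IV count after ATRA was 5 without untreated library 1 or ATRA library 2 or 3, and 3 without untreated library 3. The count after ATO was 1 without untreated library 3 or ATO library 2, and 1 member was called lower after ATRA+ATO without ATRA+ATO library 2. With the replicate block COX6A1 was also called after ATRA (adjusted p = 0.0429 by edgeR's quasi-likelihood test).

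In complex I of HL-60, 9 of 28 rose and 3 fell after ATRA+ATO, 10 rose and 2 fell after ATRA, and 3 rose after ATO. In shares, 32.1% rose and 10.7% fell after ATRA+ATO, beside 30.7% and 29.7% of all genes tested. After ATRA 35.7% rose and 7.14% fell, beside 25.2% and 23.3%, and after ATO 10.7% rose, beside 16.5%. NDUFB5, a membrane arm accessory subunit, was at 137, 135 and 132 CPM after ATRA+ATO, 104, 104 and 107 after ATRA and 93.6, 106 and 107 after ATO, against 79.3, 90.0 and 82.9 in untreated HL-60 cells. All treated libraries lay above the untreated ones, and the log2 change was 0.67 ± 0.06 after ATRA+ATO (adjusted p = 6.11e-10), 0.30 ± 0.06 after ATRA (adjusted p = 0.000104) and 0.27 ± 0.06 after ATO (adjusted p = 0.000879). NDUFA3 and NDUFS7, of which NDUFS7 is a core iron-sulphur subunit, rose by 0.65 and 0.55 after ATRA, and stood at 0.26, called, and 0.05, not called, after ATRA+ATO. NDUFB10 fell by 0.48 after ATRA+ATO and rose by 0.18 after ATRA. NDUFV1 and NDUFS3 also fell after ATRA+ATO, by 0.32 and 0.16, and NDUFB6 and NDUFA5 fell after ATRA, by 0.37 and 0.18. The count lower after ATRA+ATO was 9 without ATRA+ATO library 2, a library that stood apart from its group, and NDUFS3 lost its call without untreated library 2. The count higher after ATO was 6 without untreated library 2. NDUFA3 lost the ATRA+ATO call without untreated library 1 or 3 or ATRA+ATO library 2, and NDUFB10 the ATRA call without untreated library 1 or 3 or ATRA library 3. The replicate block added NDUFA12 (adjusted p = 0.0255) and NDUFS8 (0.0368) after ATRA, NDUFA3 (0.0405) after ATO, and NDUFA10 (0.0388) and NDUFA12 (0.0481) after ATRA+ATO, by edgeR's quasi-likelihood test.

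In complex II of HL-60, 3 of 4 rose after ATRA+ATO and SDHA fell. Here too the SDHA values are uncertain, given pseudogene counts equal to 85.2% of those of SDHA over all libraries. SDHB rose by 0.37, SDHC by 0.32 and SDHD by 0.33, while SDHA was at 11.6, 9.83 and 11.9 CPM after ATRA+ATO and 11.5, 11.9 and 10.2 after ATRA, against 15.0, 17.0 and 17.6 in untreated HL-60 cells, without overlap. SDHA fell by 0.59 after ATRA+ATO (adjusted p = 2.88e-05) and by 0.58 after ATRA (adjusted p = 4.67e-05). In complex III, UQCRB, UQCRC1, UQCRC2 and UQCRH rose after ATRA+ATO and after ATRA, with UQCRB, at 0.44 ± 0.04 after ATRA+ATO (adjusted p = 8.84e-09). The ATRA+ATO call of UQCRH was lost without untreated library 1 or 3 or ATRA+ATO library 2, and the ATRA call of UQCRC2 without untreated library 3. UQCRC1 was the 1 complex III member called after ATO, at 0.16, and lost that call in 5 of the 6 fits that left out 1 library. CYC1 had a value of -0.18 after ATRA+ATO that was not called, and was called lower with the replicate block (adjusted p = 0.0155 by edgeR's quasi-likelihood test), while 1 complex III member was called lower without untreated library 3 or ATRA+ATO library 2. In complex V, ATP5F1E rose by 0.35 after ATRA+ATO and 0.31 after ATRA, ATP5F1A by 0.11 after ATRA, and ATP5F1C fell by 0.14 after ATRA and ATP5F1D by 0.33 after ATRA+ATO. These calls of ATP5F1A, ATP5F1C and ATP5F1D were lost in 2 to 4 of the fits that left out 1 library, and those of ATP5F1E were not.

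Against each drug alone, the HL-60 combination called 17 members higher and 6 lower than ATO, beside 27.5% of all genes tested higher and 27% lower, 54.5% in all, and 14 higher and 13 lower than ATRA, beside 22% of all genes tested higher and 21.9% lower, 43.9% in all. By library sizes alone, 40.7% of the called members were higher than in ATO (11 of 27), against 73.9% with TMM, and 36.0% were higher than in ATRA (9 of 25), against 51.9% with TMM. That scaling moved the median of all genes by -0.101 in the comparison with ATO, so neither split had a direction that held under both scalings. NDUFB10 fell by 0.65 against ATRA and 0.45 against ATO, while NDUFA5 rose by 0.37 and 0.27 and NDUFB5 by 0.37 and 0.40. The count lower than ATO was 14 without ATRA+ATO library 2, the count higher than ATRA was 9 without ATRA library 1 or ATRA+ATO library 2, and the count lower than ATRA was 8 without ATRA+ATO library 1.

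The difference between the lines was tested directly, as the NB4 response minus the HL-60 response. After ATRA+ATO, 21 members responded lower in NB4 than in HL-60 and 4 higher, against 24.9% of all genes tested higher and 22.7% lower, 47.5% in all. After ATRA, 12 were lower and 5 higher, against 17.7% of all genes tested higher and 16.8% lower, 34.5% in all. After ATO, 1 was lower and 3 higher, against 7.11% of all genes tested higher and 6% lower, 13.1% in all. For ATRA+ATO the 21 lower ones were 11 of complex I, 3 of II, 4 of III and 3 of V, and the 4 higher ones were COX5B, COX8A, NDUFA2 and NDUFB7. For ATRA the lower ones were 11 of complex I and UQCRC2, and the higher ones were COX5B, COX6C, COX7A2, COX7C and COX8A. The median of all genes in the ATRA+ATO difference was 0.11, and library sizes alone moved it by 0.135. With that scaling 41.7% of the members called were higher in NB4 (10 of 24), against 16.0% with TMM. Without HL-60 ATRA+ATO library 2, 9 members were called higher, 6 of them in complex IV, against 4 and 2 with all libraries, and 4 in complex IV without NB4 untreated library 3 or NB4 ATRA+ATO library 1. After ATO, the count higher was 0 without NB4 untreated library 1, HL-60 untreated library 2 or HL-60 ATO library 1, and the count lower was 2 without the last of these.

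NDUFA5 differed most between the lines. It was at 65.8, 55.2 and 71.4 CPM after ATRA+ATO in NB4, against 134, 134 and 128 in untreated NB4 cells, and at 154, 133 and 146 after ATRA+ATO in HL-60, against 124, 132 and 121 in untreated HL-60 cells. It fell in NB4 and rose by 0.19 in HL-60, and the difference was -1.21 ± 0.11 (adjusted p = 9.94e-11). SDHD was at 153, 145 and 137 CPM after ATRA+ATO in HL-60, against 104, 115 and 125 in untreated HL-60 cells, and its difference between the lines was -0.77 ± 0.11 (adjusted p = 2.66e-07). NDUFS1 was at 119, 128 and 118 CPM after ATRA+ATO in NB4, against 158, 171 and 165 in untreated NB4 cells, and at 201, 209.7 and 219 in HL-60, against 165, 172 and 177 in untreated HL-60 cells, with a difference of -0.69 ± 0.07 (adjusted p = 1.15e-09). Both genes were lower than untreated in NB4 and higher than untreated in HL-60. UQCRC2 behaved likewise, with a difference of -0.63 ± 0.07 (adjusted p = 1.71e-09). UQCRFS1 and ATP5F1B differed by -0.55 and -0.43, and neither was called against untreated cells in HL-60.

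After ATRA, COX8A was at 76.9, 63.4 and 75.3 CPM in NB4, against 37.4, 39.7 and 42.2 in untreated NB4 cells, and at 57.9, 50.2 and 54.8 in HL-60, against 46.1, 48.2 and 44.3 in untreated HL-60 cells. The response was higher in NB4 by 0.63 ± 0.13 on the log2 scale (adjusted p = 0.000271). COX5B responded higher in NB4 by 0.47 ± 0.11 (adjusted p = 0.00149) and COX7A2 by 0.41 ± 0.09 (adjusted p = 0.000674). COX7C, at 0.24, lost its call in 5 of the fits that left out 1 library. Lower ATRA responses in NB4 were seen for NDUFB10, at -0.51, NDUFS1, at -0.45, and UQCRC2, at -0.33. After ATO, NDUFA5 had a lower response in NB4, at -0.49, and COX5A, COX7A2 and COX8A had higher ones, at 0.31, 0.33 and 0.43. COX5A and COX7A2 lost these calls without NB4 untreated library 1, HL-60 untreated library 2 or HL-60 ATO library 1, and COX8A without any 1 of 8 libraries.

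**Figure D3:**
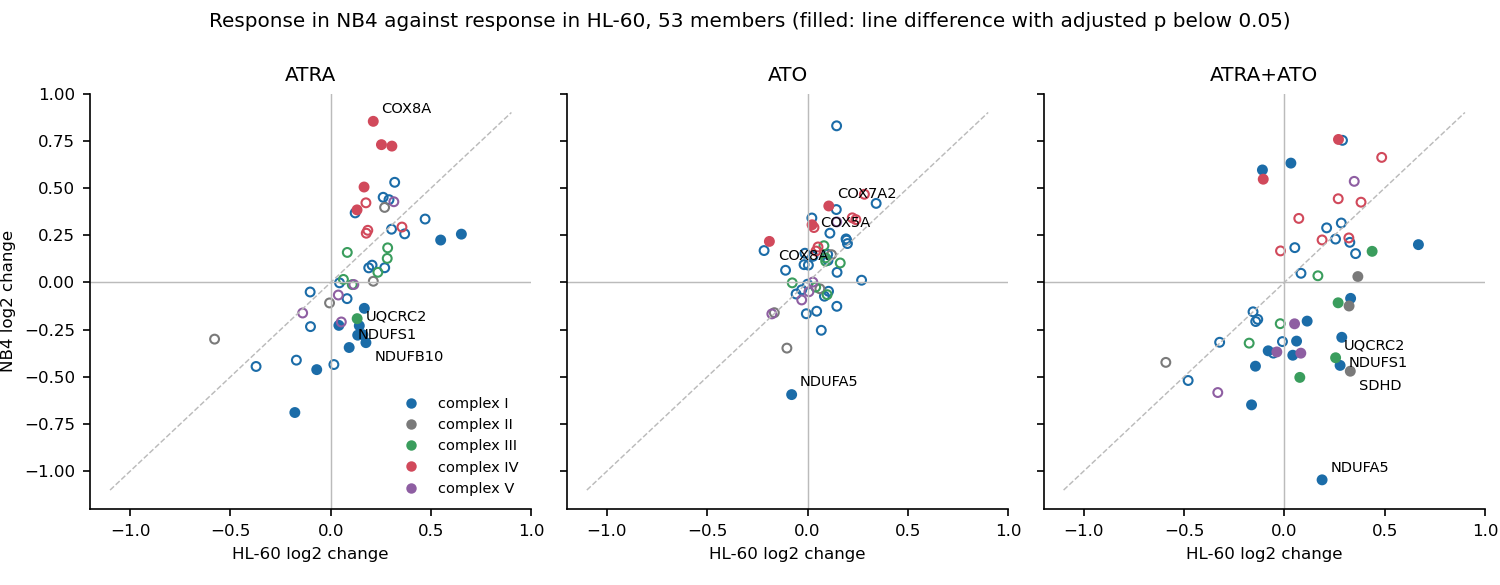
Log2 change against untreated cells in HL-60 (horizontal) and NB4 (vertical) for the 53 members, coloured by complex, after ATRA, ATO and ATRA+ATO, with filled points for members whose responses differed between the lines at an adjusted p below 0.05. After ATRA+ATO, 21 of the filled points lie below the diagonal and 4 above it, with NDUFA5 at -1.05 in NB4 and 0.19 in HL-60.

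Untreated NB4 cells were lower than untreated HL-60 cells for 29 members and higher for 6, against 29.1% of all genes tested higher and 34% lower, 63.2% in all. With library sizes alone, which moved the median of all genes by 0.129, 41.2% of the called members were higher in NB4 (14 of 34), against 17.1% with TMM. The lower ones included 12 members of complex I, 3 of II, 6 of III, 6 of IV and 2 of V. NDUFB9, a membrane arm accessory subunit, was at 93.1, 99.9 and 109 CPM in untreated NB4 cells, against 228, 252 and 213 in untreated HL-60 cells, a log2 difference of -1.20 ± 0.07 (adjusted p = 2.95e-15). ATP5F1A was at 466, 475 and 481 CPM in NB4, against 1008, 1109 and 1009 in HL-60, a difference of -1.14 ± 0.05 (adjusted p = 1.81e-19). COX7A2 was at 89.5, 97.3 and 93.4 CPM in NB4, against 196, 214 and 193 in HL-60, a difference of -1.11 ± 0.07 (adjusted p = 1.23e-15). In these 3 genes the untreated libraries of the lines did not overlap. NDUFA6 differed by -1.17, COX6B1 by -1.01 and COX5B by -0.80. Higher in NB4 were UQCRQ by 0.60, COX7C by 0.48, ATP5F1C by 0.27, NDUFV1 by 0.24, COX4I1 by 0.24 and NDUFB6 by 0.23. The calls of NDUFA13, NDUFB10, UQCRC2 and COX8A were lost with a replicate block within each line (adjusted p = 0.232, 0.103, 0.0567 and 0.166 by edgeR's quasi-likelihood test), and that of NDUFB6 without HL-60 untreated library 1.

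The summed level of the 9 nuclear complex IV genes in NB4 was 1345 ± 97.4 CPM after ATRA+ATO, 1416 ± 87.4 after ATRA and 1276 ± 27.6 after ATO, against 1059 ± 65.3 in untreated cells (SD, n = 3 each). Its ratio to the sum of the 28 complex I genes was 0.859, 0.914 and 0.909 after ATRA+ATO, 0.9, 0.834 and 0.903 after ATRA and 0.703, 0.682 and 0.713 after ATO, against 0.578, 0.594 and 0.618 in untreated NB4 cells. All treated libraries lay above the untreated ones, and the same held for the ratio to complex V, whose means were 0.836 ± 0.0323, 0.734 ± 0.0157 and 0.662 ± 0.0101, against 0.537 ± 0.0209 (SD, n = 3 each). In HL-60 the ratio to complex I was 0.695, 0.731 and 0.718 after ATRA+ATO, 0.676, 0.676 and 0.678 after ATRA and 0.636, 0.649 and 0.643 after ATO, against 0.626, 0.634 and 0.615 in untreated HL-60 cells. The treated HL-60 libraries also all lay above the untreated ones, in this ratio and in that to complex V. The HL-60 means of the ratio to complex V were 0.585 ± 0.0149, 0.559 ± 0.00351 and 0.545 ± 0.0167, against 0.504 ± 0.0145 (SD, n = 3 each). A ratio within a library does not depend on the scaling between libraries, and it shows unequal change, not which sum moved. With 3 libraries against 3, an exact permutation test cannot give a two-sided p under 0.1, so no test is given for these sums and ratios.

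The 3 complex IV genes of the mitochondrial genome, MT-CO1, MT-CO2 and MT-CO3, had a summed level in NB4 of 14341 ± 1824 CPM after ATRA+ATO, 26338 ± 2776 after ATRA and 15166 ± 1841 after ATO, against 22561 ± 2339 in untreated cells (SD, n = 3 each). After ATRA+ATO they fell by 0.69, 0.62 and 0.64 in that order of genes, and after ATO by 0.69, 0.43 and 0.52. After ATRA, MT-CO2 rose by 0.27 and MT-CO3 by 0.24, while MT-CO1 had a value of 0.19 and was not called. In HL-60, MT-CO1 and MT-CO2 rose by 0.13 and 0.24 after ATRA, MT-CO3 fell by 0.33 after ATRA+ATO, and MT-CO1 and MT-CO3 fell by 0.23 and 0.72 after ATO. The nuclear genes made up 8.66 ± 1.16% of the CPM summed over the 9 nuclear and 3 mitochondrial genes after ATRA+ATO, 5.14 ± 0.645% after ATRA and 7.84 ± 1.07% after ATO, against 4.53 ± 0.645% in untreated NB4 cells (SD, n = 3 each). In HL-60 the same share was 5.14 ± 0.702%, 4.52 ± 0.247% and 5.49 ± 0.194%, against 4.24 ± 0.318% in untreated cells (SD, n = 3 each). Libraries were selected for poly(A) tails, which mitochondrial mRNAs carry in short form, so levels of the 2 genomes are not comparable as amounts of RNA. Of 3 nuclear genes tied to complex IV but outside the 53, picked after their values were seen, NDUFA4 rose by 0.62, 0.52 and 0.26 in NB4 after ATRA+ATO, ATRA and ATO. COX7B was at -0.03 after ATRA+ATO, not called, and 0.28 after ATRA, called, while COX7A2L, which helps join complexes III and IV, fell by 0.18 after ATRA+ATO.

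**Figure D4:**
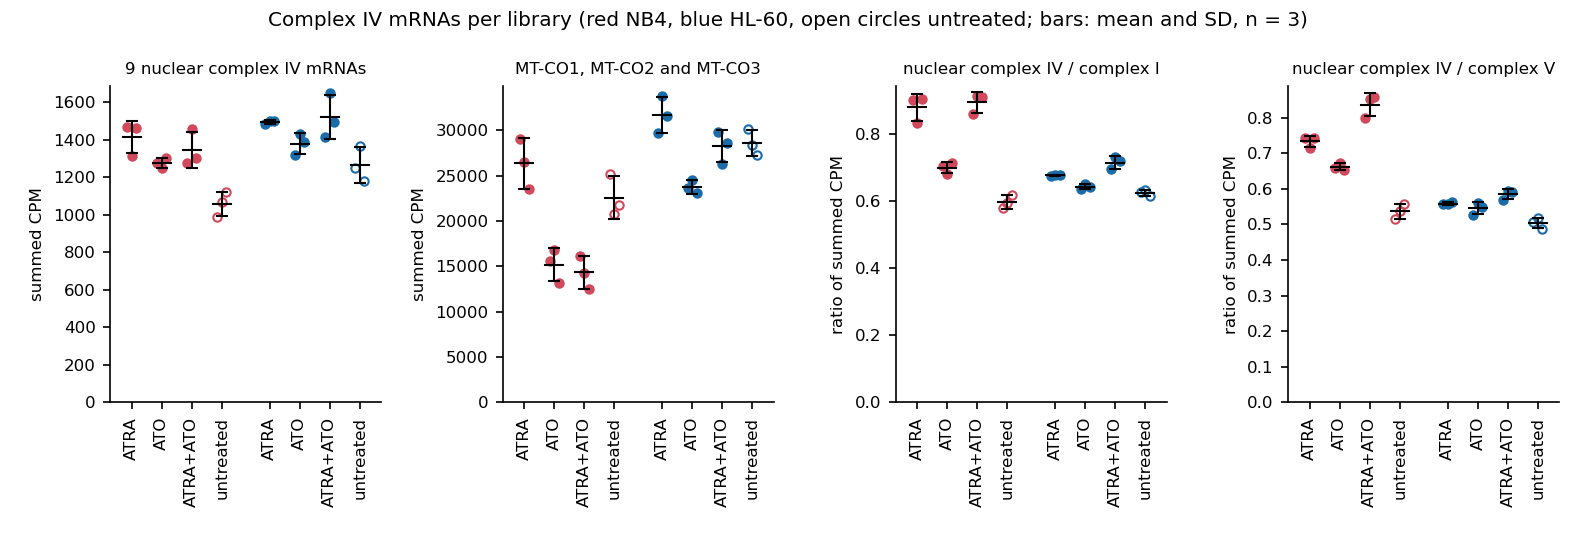
Summed CPM of the 9 nuclear and the 3 mitochondrially encoded complex IV genes, and the ratio of the nuclear complex IV sum to the complex I and complex V sums, in every library of each group (points) with the mean and SD of each group (horizontal line and bars, n = 3). The ratio to complex I averages 0.894 after ATRA+ATO and 0.597 in untreated NB4 cells, against 0.715 and 0.625 in HL-60.

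Other genes of the pathway were counted by list, beside the shares of all genes given above. After ATRA+ATO in NB4, 13 of 14 complex I assembly factors fell and 1 rose, with a median log2 change of -0.69. All 13 mitochondrially encoded subunits fell, also with a median of -0.69, as did 28 of 30 mitochondrial ribosomal protein genes, with 2 higher and a median of -0.68. Of 10 regulators of mitochondrial genes tested, 9 fell and 1 rose, with a median of -1.06, and of 17 citric acid cycle genes 12 fell and 2 rose. Glycolysis went the other way, with 11 of 20 genes higher and 5 lower and a median of 0.41. Nuclear subunits outside the 53 split as 7 higher and 12 lower of 26, assembly factors of complexes II to V as 5 and 17 of 35, and electron carriers with adenine nucleotide exchange genes as 2 and 7 of 17.

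After ATRA alone in NB4, 31.3% of all genes tested were higher and 28.6% lower. Complex I assembly factors split as 1 higher and 11 lower, mitochondrial ribosomal genes as 3 and 24, and glycolysis as 16 and 2, while 4 of the 13 mitochondrially encoded subunits rose. After ATO alone the splits were 1 and 5, 1 and 12, and 8 and 2 for these 3 lists, and all 13 mitochondrially encoded subunits fell. In HL-60 after ATRA+ATO they were 4 and 5, 5 and 16, and 7 and 6, with 3 mitochondrially encoded subunits higher and 3 lower, and the citric acid cycle split as 7 and 5. Tested between the lines, the ATRA+ATO response was lower in NB4 for 22.7% of all genes tested and higher for 24.9%. It was lower for 10 of the 14 listed complex I assembly factors, 18 of 30 mitochondrial ribosomal genes and 12 of 13 mitochondrially encoded subunits. It was also lower for 11 of 17 citric acid cycle genes and 8 of 12 listed regulators. Only lower counts are given here, and the remaining lists are left out.

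Named by their smallest p in these lists, CYCS, cytochrome c itself, was at 224, 218 and 233 CPM after ATRA+ATO in NB4, against 563, 553 and 518 in untreated NB4 cells, and at 846, 778 and 827 in HL-60, against 539.96, 609.8 and 603 in untreated HL-60 cells. The mRNA of this carrier between complexes III and IV thus fell by 1.28 in NB4 and rose by 0.47 in HL-60 on the log2 scale. NDUFAF4, a complex I assembly factor, fell by 1.83 in NB4 and rose by 0.39 in HL-60 after ATRA+ATO. COX17, the copper chaperone of complex IV, rose in both lines, by 0.88 and 0.82. PPARGC1A, a coactivator known to drive mitochondrial gene expression, was at 25.4, 22.2 and 25.4 CPM after ATRA+ATO in HL-60, against 1.10, 0.883 and 0.752 in untreated HL-60 cells, and was filtered out as too low in NB4.

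**Figure D5:**
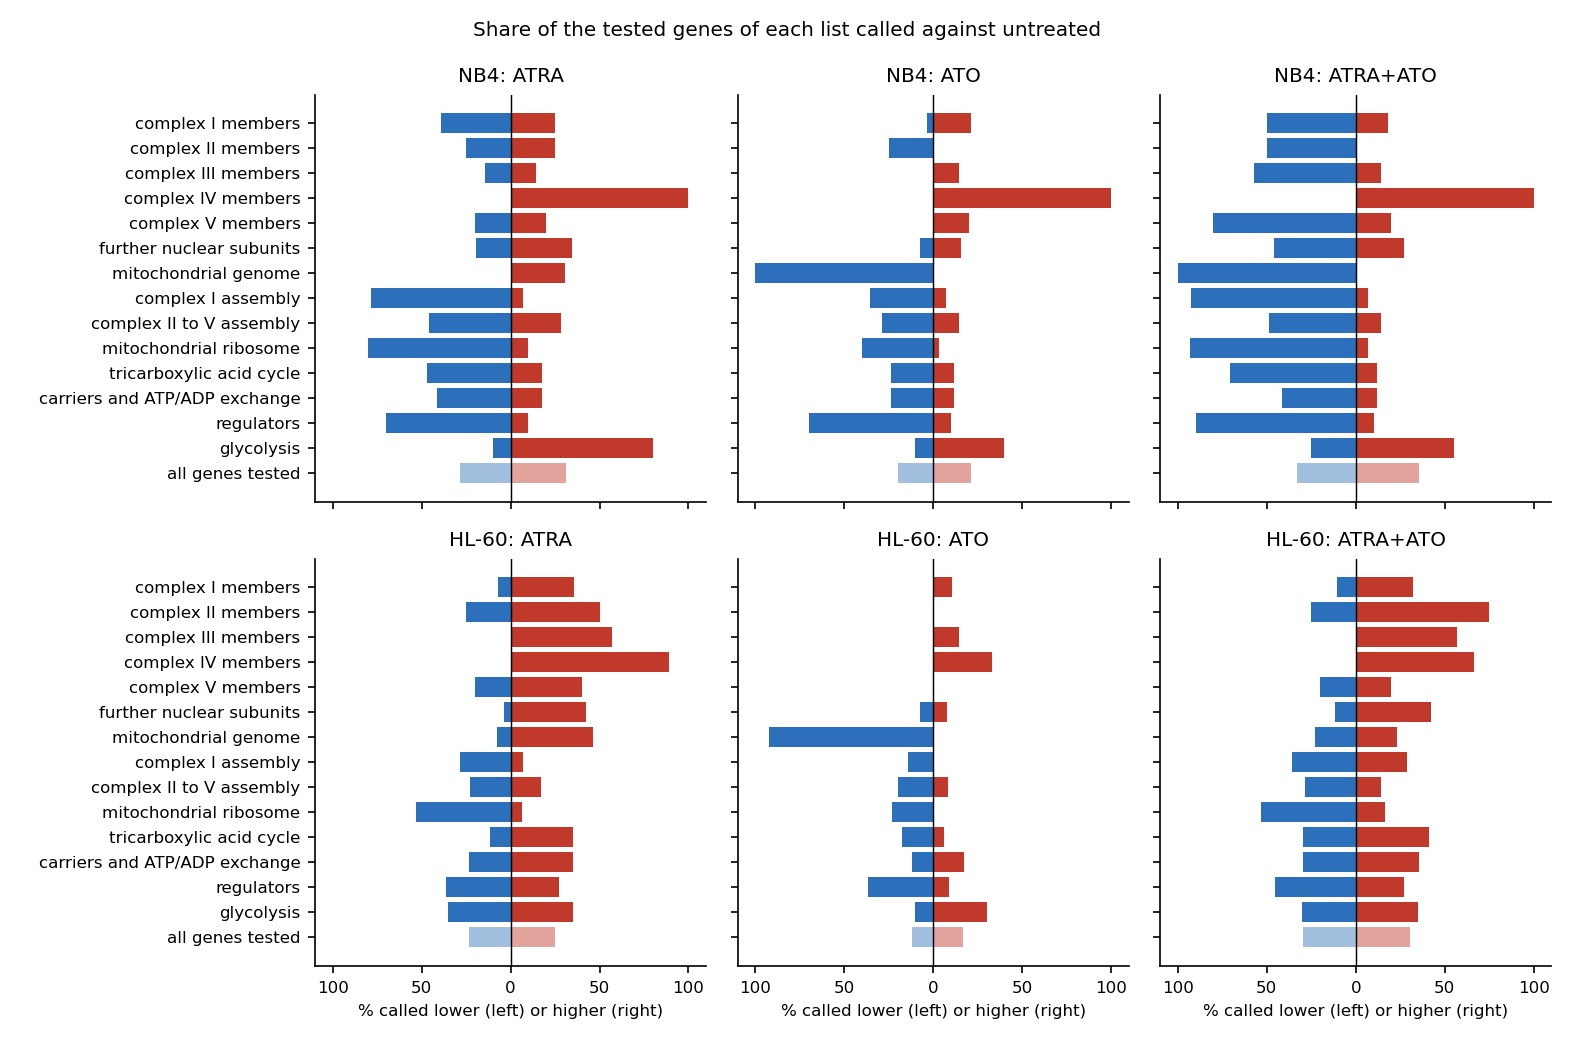
Percentage of tested genes called higher (to the right) and lower (to the left) in each list of respiratory chain and related genes, for each treatment in NB4 and HL-60, with the share of all genes tested as the lowest bar. After ATRA+ATO in NB4 the complex IV bar lies wholly on the higher side and the mitochondrially encoded bar wholly on the lower side.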

How the data were processed

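Poly(A) RNA of 24 libraries was isolated with oligo(dT) beads and sequenced as paired ends, per the labels' protocols. The deposited values are raw gene counts by Ensembl ID. Per the submitters' processing notes, the tools were fastp, HISAT2, featureCounts and DESeq2 with the GRCh38 build, without versions; the strand setting, the annotation and the unit counted (reads or pairs) are likewise not given in the sources used here. Of counts from 1 to 9, 74.4% were even, against 51.5% of counts of 500 or more, so halved counts were tried as an alternative. Symbols came from a separate reference of gene names, which named 60400 of the genes. Positions, gene types and exon lengths came from GENCODE v29, which held 58393 of them.

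Counts were tested with edgeR 4.0.16 in R 4.3.3 (filterByExpr, TMM, quasi-likelihood test) in the 12 libraries of each line, with 16370 genes tested in NB4 and 15895 in HL-60, and in all 24 for differences between lines (17930 genes). Benjamini-Hochberg adjustment was made over all genes within each of 16 comparisons. Variation between replicates beyond counting (edgeR's common BCV) came to 8.78% for NB4, 7.0% for HL-60 and 7.98% for both lines together, so counting error mattered only for low members, of which NDUFA13 had 1318 and NDUFV2 1470 counts over all libraries. The procedure was tested on simulated counts with planted changes larger than most changes given here, so that test does not cover the smaller ones. The labels give batch numbers, which pair libraries across groups. Correlations between residuals of same-numbered libraries, 18 pairs per line, lay between -0.0812 and 0.0383 for NB4 and between -0.00807 and 0.0589 for HL-60, and the replicate block was fitted as an alternative.

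The members and lists were chosen with earlier results of these data known. Any member could be named. A fixed rule picked, for each treatment and line, the called members with the smallest p (4 of complex I, 2 of each other complex). It also picked the 4 with the smallest p in each line difference, and the 2 with the smallest p in each other list after ATRA+ATO. Not all of these are named in the text, some are given without a standard error or p, and some others are given as examples. Alternatives were DESeq2 1.42.0, limma-voom (limma 3.58.1), DESeq2 size factors, library sizes alone, no filter, 1 CPM in 3 libraries, halved counts, all 24 libraries in one fit, the replicate block, an adjusted p below 0.01, and leaving out each library.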

Additional observations from a re-analysis of the deposited data

Results flagged for a closer look

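A difference between NB4 and HL-60 in the response to the same treatment, tested in the fit of all 24 libraries by edgeR's quasi-likelihood test, marked the following results. After ATRA+ATO, 21 members responded lower in NB4 than in HL-60 and 4 higher, and the 4 with the smallest p were NDUFA5 at -1.21, NDUFS1 at -0.69, UQCRC2 at -0.63 and SDHD at -0.77 on the log2 scale. After ATRA, 12 responded lower and 5 higher, led by COX8A at 0.63, NDUFB10 at -0.51, NDUFS1 at -0.45 and UQCRC2 at -0.33. After ATO, 1 responded lower and 3 higher, namely NDUFA5 at -0.49, COX8A at 0.43, COX7A2 at 0.33 and COX5A at 0.31, and the 3 higher ones were lost without NB4 untreated library 1, HL-60 untreated library 2 or HL-60 ATO library 1. Members called were 47.2% after ATRA+ATO, 32.1% after ATRA and 7.55% after ATO, near or below the 47.5%, 34.5% and 13.1% of all genes tested. By direction, 39.6% were lower and 7.55% higher after ATRA+ATO, beside 22.7% and 24.9% of all genes. After ATRA, 22.6% were lower and 9.43% higher, beside 16.8% and 17.7%. The part of differentiation markers, which also moved in both lines, was not tested.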

How the results depend on the processing

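Over the 16 comparisons, 499 of the 572 recomputed counts of members called stayed within 1.5 times of the reported ones. Counts of members in this section, also those above or below 0, are of members called. Of 1272 recomputed values of the members picked by the smallest p, 61 lost their call and 0 changed sign. Library sizes alone gave 28 members higher after ATO in NB4, 6 higher and 6 lower for ATRA+ATO against ATRA in NB4, 12 lower after ATRA+ATO in HL-60, 9 higher for ATRA+ATO against ATRA and 11 higher and 16 lower against ATO in HL-60, 18 below 0 in the HL-60 interaction, 5 and 10 higher in the ATO and ATRA+ATO line differences, and 14 higher in untreated NB4. An adjusted p below 0.01 gave 9 higher after ATO in NB4, 0 higher against ATRA, 4 higher against ATO, and 0 above and 8 below 0 in the NB4 interaction. In HL-60 it gave 17 higher after ATRA, 4 higher after ATO, 8 higher for ATRA+ATO against ATRA and 5 below 0 in the interaction, and 0 higher in the ATO line difference. The fit of all 24 libraries gave 4 higher after ATO in HL-60. For members lower after ATO in HL-60, DESeq2 and no filter each gave 1, and no filter gave 8 lower after ATRA+ATO. Above 0 in the HL-60 interaction were 6 with DESeq2 and 5 each with limma-voom, DESeq2 size factors, 1 CPM in 3 libraries and halved counts. A filter of 1 CPM gave 7 higher in the ATRA+ATO line difference. The count of 1 member called above 0 in the NB4 interaction became 0 with no filter and with the replicate block. Beside the calls named in the report, the block changed UQCRH after ATRA+ATO against ATRA, NDUFB7 against ATO, and NDUFA6, NDUFB6, UQCRH and COX5B in the interaction, all newly called in HL-60, NDUFA12 in the ATRA line difference, and COX4I1 and COX6A1 in the ATRA+ATO one, and no other call of a member. Leaving out 1 library gave 8 to 16 higher after ATO in NB4, 1 to 3 higher and 9 to 18 lower against ATRA, and 0 to 2 above and 9 to 24 below 0 in the NB4 interaction. In HL-60 it gave 16 to 29 higher after ATRA, 3 to 12 higher after ATO, 3 to 13 lower after ATRA+ATO, 9 to 12 higher and 8 to 17 lower against ATRA, 4 to 14 lower against ATO, and 5 to 21 below 0 in the interaction. In the line differences it gave 0 to 4 higher and 1 to 2 lower for ATO and 4 to 9 higher for ATRA+ATO. The causes were not tested. After ATRA+ATO in NB4, NDUFA13 stood at 0.75 and NDUFV2 at 0.29 on the log2 scale without a call.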
